A study of Homo sapiens with 6 samples.

Results

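SPARC, the SMOC proteins, the testicans (SPOCK) and the follistatin-like proteins are secreted glycoproteins that carry a follistatin-type domain. The 10 genes FST, FSTL1, FSTL3, FSTL4, FSTL5, SMOC1, SMOC2, SPARC, SPOCK1 and SPOCK2 were taken from a table of 18677 genes by their symbols in GENCODE 29. Of these, 8 had a row and 7 passed the filter on low counts, and the expression of SMOC1 and SPOCK1, which had no row, was not analysed here. The family was picked because SMOC2 and FSTL5 were higher and FSTL1 was lower in this same comparison. Their differences are therefore given as a description, with no p-value, and counts of calls among them support nothing by themselves.

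H1299, from which all libraries were made, is a human lung carcinoma line of the non-small cell type that has long been established in culture. In 3 libraries the cells carried a guide labelled hSETDB1 sg1, against SETDB1, the enzyme that trimethylates histone H3 at lysine 9, a mark of silenced chromatin. In the other 3 they carried a guide labelled Control sg2. Both groups were grown in the same medium with serum, antibiotics and puromycin. Each group rests on 1 guide, the labels give no clone or pool, and no label ties the replicates to separate cultures, so every test below measures only the spread between these libraries. Levels are in CPM, the count of a gene scaled to a common library total (here with TMM factors), with the SD over the 3 libraries of a group. A difference is a log2 fold change of SETDB1 knockout over control with its standard error (SE). A gene was called when its adjusted p was under 0.05 by edgeR's quasi-likelihood test with Benjamini-Hochberg adjustment over 17675 genes.

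The follistatin-type domain is a cysteine-rich module that in follistatin (FST) and FSTL3 serves to trap activins and related ligands, which keeps those ligands from their receptors. In SPARC, the SMOC proteins, the testicans and FSTL1 it stands beside a domain with EF-hand motifs, which in SPARC binds calcium, and SPARC is known as a collagen-binding matricellular protein, one that tunes how cells meet the matrix without building it. SMOC proteins are extracellular modulators of BMP signalling, and FSTL1 has been described as an antagonist of BMP4 that is needed for normal lung development. FSTL4 and FSTL5 add immunoglobulin-like domains and are best known from neural tissue, while the testicans are proteoglycans.

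SMOC2 and FSTL5 are the members that went from almost no reads to clear expression, so the sequence just before each start is shown, 5′ to 3′ on the strand of the gene, with every CG dinucleotide in capitals (CG reads the same on both strands). Both stretches come from the RefSeq promoter table (GRCh38.p14) and end where the first GENCODE 29 exon of the gene begins. They lie at chr6:168440934-168441150 on the plus strand for SMOC2 and at chr4:162164036-162164250 on the minus strand for FSTL5.
SMOC2: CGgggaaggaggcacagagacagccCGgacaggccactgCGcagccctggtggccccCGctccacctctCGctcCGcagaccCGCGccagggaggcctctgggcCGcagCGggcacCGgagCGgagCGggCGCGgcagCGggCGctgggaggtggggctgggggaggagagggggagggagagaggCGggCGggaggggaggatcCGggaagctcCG
FSTL5: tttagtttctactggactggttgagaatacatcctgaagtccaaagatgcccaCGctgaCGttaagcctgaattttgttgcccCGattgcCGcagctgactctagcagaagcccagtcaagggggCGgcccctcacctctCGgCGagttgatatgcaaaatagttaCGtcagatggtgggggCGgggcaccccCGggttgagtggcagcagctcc
The stretch of SMOC2 held 21 CG in 217 bases, whereas that of FSTL5 held 10 in 215 bases.

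Promoters were compared over windows of 300 bases, from 250 before to 50 after the RefSeq start. The SMOC2 window had 28 CG and a GC content of 75.0%, and the FSTL5 window had 11 CG and a GC content of 55.7%. FSTL1, which was lower in the knockout, had 30 CG and 73.7% GC. Over 35116 promoters in the table the median was 14 CG, and 96.0% held at least 1. The promoter of SMOC2 was thus above 73.8% of all promoters in its CG count and that of FSTL5 above 45.3%, so the pair that was raised did not share a CG density. Of the 9 members in the table, FSTL3, FSTL4 and FST had 44, 42 and 32 CG, and SPARC had 11. The letters TATAAA, searched on both strands, were present in the windows of FSTL3 and SMOC1, against 11.5% of all promoters, and not in those of SMOC2, FSTL5 or FSTL1.

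The libraries held between 29532057 and 35941288 counts, and none was set aside. SETDB1 mRNA was lower in the knockout by only a small amount (log2 fold change -0.17 ± 0.06, edgeR adjusted p = 0.0151), a call that was lost when only library size was used for scaling and when SETDB1-knockout replicate 2 was left out (edgeR adjusted p = 0.0604 and 0.0896; the alternatives spanned 4.84e-04 to 0.0896). VIM, KRT8 and KRT18 were abundant in all libraries. Markers of other cell types were few and low: summed over 3 leukocyte genes with a row of 7 listed, 2 endothelial of 6 and 3 fibroblast of 8, the levels ranged from 1.10 to 1.58, 1.47 to 1.94 and 1.13 to 1.39 CPM in the knockout, and from 0.424 to 0.801, 3.37 to 3.84 and 1.70 to 1.83 CPM in the control. The defining genes PTPRC and PECAM1 had no row. Their part in the results was not tested.

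In the knockout SMOC2 and FSTL5 rose from nothing or almost nothing to 24.7 and 37.0 CPM, FSTL1 fell 5.37-fold, and FST, at a low level, also fell. FSTL3, SPARC and SPOCK2 were not called. That makes 2 members called higher and 2 called lower of 7 tested, beside 31.9% and 31.6% of all genes tested (63.5% in either direction), and the libraries of the groups did not overlap for 4 of the 7, beside 66.8% of all genes. Since the family was chosen from this comparison, nothing is read from these counts. The median log2 fold change of the 7 was 0.038, also with SMOC2 at its lower bound, and that of all genes was 0.0095.

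**Figure D1:**
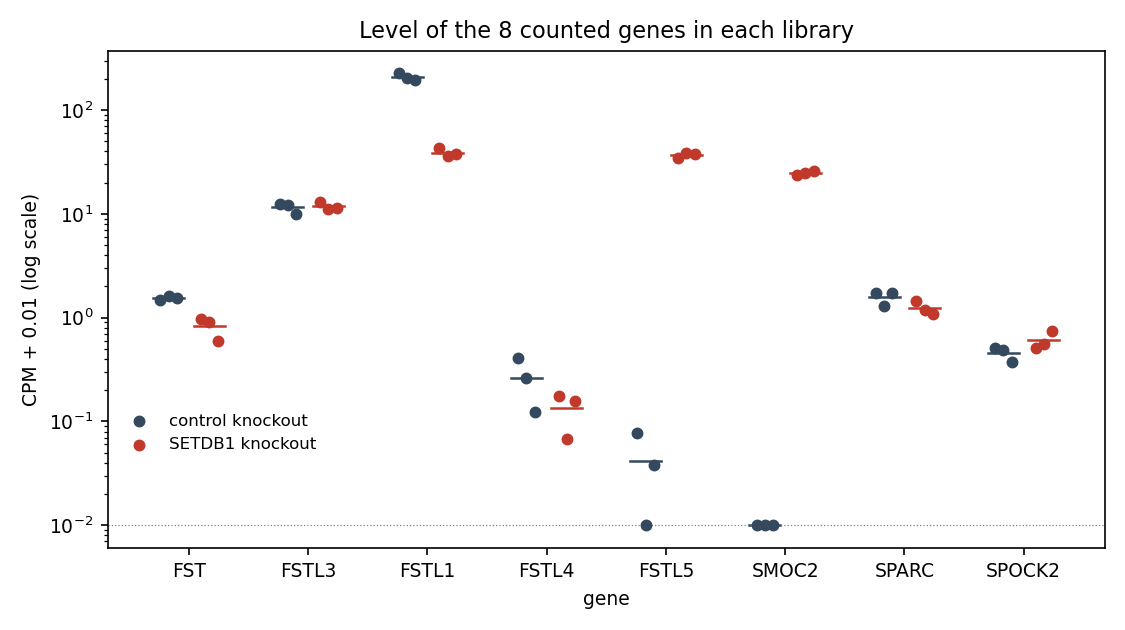
Level of each counted gene in the 6 libraries, as CPM + 0.01 on a log axis; points are libraries (dark, control knockout; red, SETDB1 knockout), short lines are group means, and the dotted line marks 0 CPM. SMOC2 lies at 0 in the control and at 23.5 to 25.8 CPM in the knockout, FSTL1 moves down between the groups, and the points of FSTL3, SPARC, SPOCK2 and FSTL4 overlap.

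SMOC2 (ENSG00000112562, GRCh38 chromosome 6, 168441151 to 168673445, plus strand) encodes a matricellular protein of the SPARC family. It had 705, 861 and 883 counts in the knockout libraries, or 23.5, 24.9 and 25.8 CPM, and 0 counts in each control library. The groups therefore stood apart without any intermediate library. Against a floor of 3 counts summed over the control libraries, its level was at least 802-fold higher in the knockout. Among 64 tested genes with 0 counts in the control, it had the second highest level in the knockout, a ranking chosen after the values were seen. No annotated gene overlaps SMOC2, so no other gene of GENCODE 29 shares its reads by position.

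FSTL5 (ENSG00000168843, chromosome 4, 161383897 to 162164035, minus strand) encodes a follistatin-like protein known from brain, and its gene body spans 780 kb with 5.36 kb of merged exons. It had 1028, 1333 and 1305 counts in the knockout, or 34.3, 38.5 and 38.2 CPM, against 2, 0 and 1 counts in the control. All knockout libraries were high and all control libraries were at the edge of detection. The ratio of the pooled groups was 1201, with an exact 95% counting interval of 411 to 5826 that covers counting error only. Inside the gene on the other strand, the antisense gene AC104793.1 had 10, 20 and 17 counts in the knockout and 0 in each control library, at least 15.4-fold higher. It was singled out after its values were seen. Because the sources used here do not give the strand handling of the counting, its reads cannot be told apart from reads of FSTL5.

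FSTL1 (ENSG00000163430, chromosome 3, 120392293 to 120451253, minus strand) was the member with the highest level in control cells, per kb of exon as well as in CPM, at 226, 202 and 197 CPM. In the knockout it had 42.8, 36.1 and 37.5 CPM. The lowest control library was thus more than 4 times as high as the highest knockout library. The group levels were 208 ± 15.8 and 38.8 ± 3.53 CPM, and the difference was -2.43 ± 0.07 (SE) on the log2 scale. Over the 14 alternatives tried it lay between -2.50 and -2.35. Among 2217 tested genes with a control mean of at least 100 CPM, only 1 other fell more steeply, again a ranking chosen after the values were seen. In whole-culture RNA, fewer cells that express a gene and less RNA of it per cell cannot be told apart.

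Of the activin-binding members, FST (ENSG00000134363, chromosome 5, 53480409 to 53487134) encodes follistatin, which neutralizes activins. It had 1.47, 1.61 and 1.52 CPM in the control and 0.966, 0.895 and 0.585 CPM in the knockout. The groups did not overlap, and the difference was -0.92 ± 0.20 (SE), resting on 149 control and 80 knockout counts. Its paralog FSTL3 (ENSG00000070404, chromosome 19, 676365 to 683399) encodes a further activin antagonist. Its level was 12.6, 12.1 and 9.97 CPM in the control and 13.1, 11.03 and 11.4 CPM in the knockout. These ranges overlapped, and the difference of 0.038 ± 0.091 (SE) on the log2 scale was smaller than its error.

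SPARC itself (ENSG00000113140, chromosome 5, 151661096 to 151687165), the collagen-binding founder of the family, was barely expressed in H1299. It had 1.73, 1.29 and 1.72 CPM in the control and 1.43, 1.18 and 1.08 CPM in the knockout, 41 to 61 and 37 to 43 counts per library. One control library, replicate 2, lay inside the range of the knockout libraries. The difference of -0.37 ± 0.19 (SE) did not reach the threshold, which it passed when SETDB1-knockout replicate 1 (-0.48) or control replicate 2 (-0.503) was left out. SPOCK2 (ENSG00000107742, chromosome 10, 72059035 to 72089032), a testican gene, had 0.5004, 0.473 and 0.367 CPM in the control and 0.4998, 0.549 and 0.731 CPM in the knockout, with overlapping groups and a difference of 0.43 ± 0.28 (SE). FSTL4 (ENSG00000053108, chromosome 5, 133196455 to 133612564) had 12, 8 and 4 counts in the control and 5, 2 and 5 in the knockout, which left it below the filter. Tested without a filter, its difference was -1.01 ± 0.57 (SE), and it was not called. At these depths changes of the size seen in SPARC, SPOCK2 and FSTL4 were not distinguishable from the spread between libraries.

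Levels of different genes were compared per kb of merged GENCODE 29 exons. In control cells FSTL1 stood at 23.9 ± 1.81 CPM per kb, FSTL3 at 3.77 ± 0.453, FST at 0.516 ± 0.0237 and SPARC at 0.328 ± 0.0521, in an order in which no neighbours overlapped. SPOCK2 followed at 0.0680 ± 0.0107, FSTL4 at 0.0379 ± 0.0213 and FSTL5 at 0.0059 ± 0.0063 CPM per kb, and SMOC2 was at 0; SPOCK2 was above FSTL4 within each control library, although their ranges over libraries overlapped. In the knockout the order per kb changed. FSTL5 came first at 6.91 ± 0.442 CPM per kb, SMOC2 second at 6.13 ± 0.292, then FSTL1 at 4.44 ± 0.404 and FSTL3 at 3.86 ± 0.350. The ranges of FSTL5 and SMOC2 over libraries overlapped slightly, as did those of FSTL1 and FSTL3, but within each of the 3 knockout libraries FSTL5 was above SMOC2 and FSTL1 above FSTL3. FST and SPARC, at 0.275 ± 0.0683 and 0.255 ± 0.0373 CPM per kb, did not differ beyond their spread, and their order was not the same in every knockout library. In CPM, without division by exon length, FSTL1 and FSTL5 overlapped in the knockout, at 38.8 ± 3.53 and 37.0 ± 2.37. Both were above SMOC2 at 24.7 ± 1.18 CPM. The place of FSTL1 thus depends on merged exon length, 8.73 kb against 5.36 kb for FSTL5 and 4.03 kb for SMOC2. These lengths merge the exons of all annotated transcripts of a gene. Among 13418 tested protein-coding genes, the level per kb of FSTL1 was above 87.0% of genes in the control and above 47.7% in the knockout, while FSTL5 went from above 0.551% to above 59.6%.

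The make-up of the family in each library differed between the groups. The summed level of the 8 counted members was 28.6 ± 2.20 CPM per kb in the control and 21.98 ± 0.218 CPM per kb in the knockout (n = 3 each). FSTL1 made up 83.5% ± 0.839 of that sum in control libraries and 20.2% ± 1.71 in knockout libraries. FSTL5 and SMOC2, nearly absent from the control sum, made up 31.4% ± 2.19 and 27.9% ± 1.37 of the knockout sum. The share of FSTL3 was 13.2% ± 0.972 and 17.6% ± 1.48. These shares follow from the same values that chose the family and are a description. They also depend on the merged exon lengths.

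**Figure D2:**
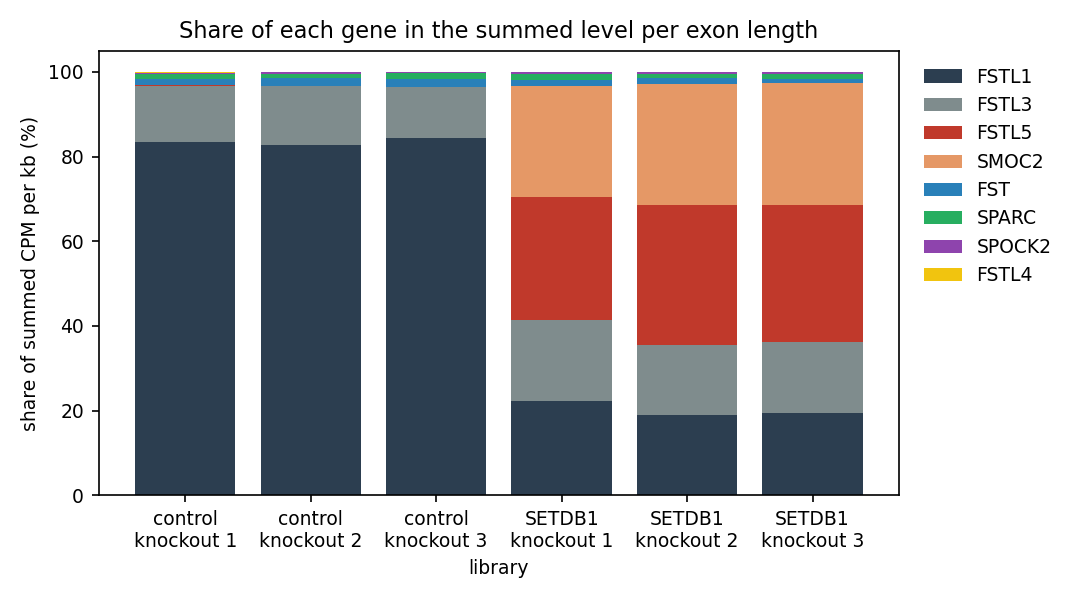
Share of each counted gene in the summed CPM per kb of the family, as stacked bars for each library (vertical axis in percent, starting at 0). FSTL1 fills 82.6 to 84.3% of every control bar and 19.04 to 22.2% of every knockout bar, where FSTL5 and SMOC2 take the largest parts.

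The members also differed in how evenly the replicates agreed. Knockout libraries varied by 4.76% (coefficient of variation) for SMOC2, 6.40% for FSTL5 and 9.09% for FSTL1, against 3.50%, 2.86% and 2.80% from counting alone. The spread of FSTL5 and FSTL1 was more than 2 times the counting error, and that of SMOC2 lay closer to it. FST varied by 24.9% in the knockout and SPARC by 14.6%, where 26.7 and 40.3 counts per library allow 19.4% and 15.7% by counting. In the control FST varied by 4.59%, less than the 14.2% from counting, and SPARC by 15.9% against 13.96%. With 3 libraries a group, each of these spreads is itself imprecise.

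The genes most like the 3 members that chose the family were found by Euclidean distance of log2(CPM + 1) over the 6 libraries, as a description. Nearest to SMOC2 were SPANXB1 (distance 0.159), BST2 (0.264) and PDPN (0.332), on chromosomes X, 19 and 1, with 23.5 ± 1.48, 22.7 ± 0.638 and 21.9 ± 0.725 CPM in the knockout and 0, 3 and 0 counts over the control group. SMOC2 itself was the gene nearest to FSTL5 (0.979), followed by SPANXB1 (1.10) and FLRT2 (1.14). SPANXB1 belongs to a family of near-identical copies, so its reads are uncertain. FSTL1 had no close match: the nearest genes, COL18A1, MSMO1 and FGF5, lay at distances of 1.25, 1.29 and 1.30, and their differences of -1.59, -1.38 and -1.67 on the log2 scale were smaller than that of FSTL1.

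The expressed genes around SMOC2 and FSTL5 showed no difference of comparable size. Genes with a log2 CPM of 3 or less, such as AC104793.1 inside FSTL5, were left out of this comparison. For SMOC2, 34 expressed genes on both sides (log2 CPM above 3) had a median log2 fold change of -0.12 and ranged from -0.64 to 0.57. Its nearest tested protein-coding neighbours, AFDN at 469 kb and WDR27 at 784 kb, had differences of -0.59 ± 0.05 and -0.20 ± 0.08 (SE; edgeR adjusted p = 1.01e-08 and 0.0251). The call of WDR27 was lost under scaling by library size (-0.16), with the neighbourhood median taken out (-0.090), and without SETDB1-knockout replicate 2 or 3 (-0.14 and -0.18) or control replicate 1 or 2 (-0.16 and -0.19). FSTL5 lay in a gene-poor stretch, with RAPGEF2 2024 kb and NAF1 946 kb away. RAPGEF2 fell by 0.40 ± 0.06 (SE; edgeR adjusted p = 9.11e-06), NAF1 stood at 0.12 ± 0.07 and was not called, and 50 expressed genes around FSTL5 had a median of 0.0011. Around FSTL1 the median of 50 genes was -0.076, with 1 gene, CCDC80, lower by more than 4-fold (-2.02; named after its value was seen), and its nearest neighbours LRRC58 and NDUFB4 stood at -0.070 ± 0.075 and 0.16 ± 0.06 (SE; edgeR adjusted p = 0.433 and 0.0171). NDUFB4 lost its call when SETDB1-knockout replicate 1 (0.13), control replicate 1 (0.128) or control replicate 2 (0.129) was left out.

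**Figure D3:**
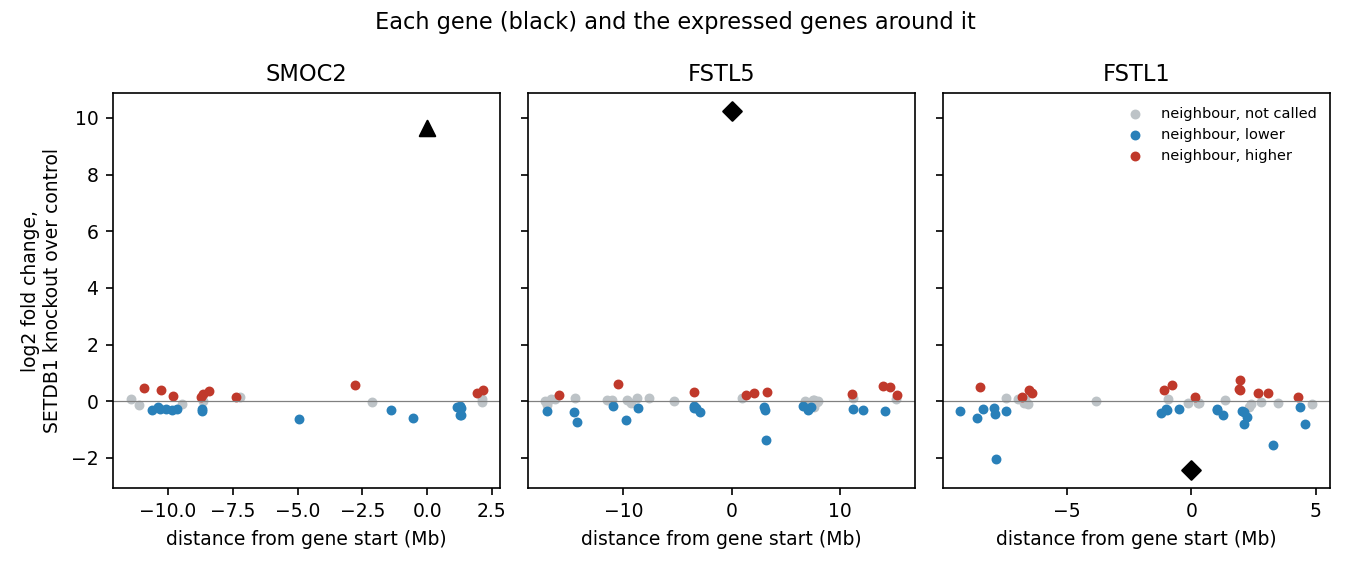
Log2 fold change (SETDB1 knockout over control) of the expressed genes around SMOC2, FSTL5 and FSTL1 against distance from the start of each gene in Mb; red, called higher, blue, called lower, grey, not called. The member is in black: a triangle for the lower bound of SMOC2 (9.65), diamonds for the pooled ratio of FSTL5 (10.2) and the fitted value of FSTL1 (-2.43), and the highest neighbours of SMOC2 and FSTL5 lie at 0.57 and 0.60.

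SPOCK2 lay in a stretch of chromosome 10 where 48 of 50 expressed neighbours were called lower and 1 higher, with a median of -0.53. Over all genes tested, 31.6% were called lower and 31.9% higher. With each gene's neighbourhood median taken out, SPOCK2 stood at 0.95 and passed the threshold, and FSTL3, whose 36 neighbours had a median of -0.19, stood at 0.23 and passed it as well. That raised the members called higher from 2 to 4. FST, FSTL4 and SPARC, which all lie on chromosome 5, had neighbourhood medians of -0.086, 0.055 and 0.043.

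No rise was called among other genes with a follistatin-type or related domain. Over all genes tested, 31.9% were called higher and 31.6% lower, and the list counts here and below are descriptions beside those shares. Of 8 tested with edgeR, 5 fell and 0 rose (0 also at an unadjusted p under 0.05, with DESeq2 and with limma-voom), with a median of -0.49; with the neighbourhood median taken out 1 was called higher. HTRA1, the gene of a secreted serine protease, had 9.93 ± 0.475 CPM in the control and 1.39 ± 0.0821 CPM in the knockout, a difference of -2.84 ± 0.11 (SE) (edgeR adjusted p = 4.08e-14). RECK, a membrane-anchored inhibitor of matrix metalloproteinases, fell by 1.09 ± 0.08 (edgeR adjusted p = 4.85e-10). Neighbouring genes fell too around HTRA1, with a median of -0.53, while that of RECK was -0.016. Over the alternatives the smallest fall of HTRA1 was -2.30, and 4 to 6 genes of this list were called lower.

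Genes of the activin and BMP pathway, on which FST, FSTL3, FSTL1 and the SMOC proteins act, were counted from lists chosen with earlier results of these data known. Beside their counts stand 31.9% called higher and 31.6% lower over all genes tested. The activin subunit genes INHBA and INHBB had no row and were not analysed here. Of 12 ligand genes tested 5 rose and 3 fell (median 0.17, the same with BMP5 at its bound), among them BMP7, which rose to 1.57 ± 0.234 from 0.413 ± 0.0541 CPM (edgeR adjusted p = 4.48e-07), and BMP4, which fell by 1.07 ± 0.23 (edgeR adjusted p = 4.38e-04). Other secreted or membrane antagonists rose in 2 and fell in 6 of 10 (median -0.41): NOG, which encodes the BMP trap noggin, rose from 3.18 ± 0.570 to 7.89 ± 1.00 CPM (edgeR adjusted p = 2.01e-08), and the BMP-binding gene CHRDL1 fell by 2.59 ± 0.13 (edgeR adjusted p = 1.87e-12). Receptors and SMADs rose in 2 and fell in 11 of 17 (median -0.36). The co-receptor ENG was higher by 2.36 ± 0.08 and the activin receptor ACVR1C lower, at -1.27 ± 0.12 (edgeR adjusted p = 1.87e-15 and 1.87e-08). Neighbouring genes fell too around ACVR1C, ACVR1 and ACVR2A, with medians of -0.67, -0.64 and -0.67, while that of BMPR2 was -0.0023. Over the alternatives the smallest falls of ACVR1C, ACVR1 and ACVR2A were -0.60, -0.22 and -0.17. The list's genes called lower numbered 8 to 11 over these fits. SMAD target genes rose in 6 and fell in 6 of 13 (median 0.35): ID3, an inhibitor of bHLH factors, rose by 1.85 ± 0.06 (edgeR adjusted p = 1.95e-15).

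Other matricellular genes, the functional class of SPARC and SMOC2, rose in 5 and fell in 8 of 15 tested (median -0.37). Over all genes tested, 31.9% were called higher and 31.6% lower. With DESeq2 or with the neighbourhood median taken out, 3 matricellular genes rose. The matrix glycoprotein gene TNC had the steepest fall of the list, from 24.5 ± 1.42 to 0.970 ± 0.0608 CPM (-4.65 ± 0.11, SE; edgeR adjusted p = 8.83e-18), and ECM1 and FBLN5 also fell, by 1.66 ± 0.16 and 1.51 ± 0.12 (edgeR adjusted p = 1.72e-08 and 1.13e-09). The steepest rise was that of THBS3, by 1.82 ± 0.07 (SE; edgeR adjusted p = 1.05e-14). Among known partners of SPARC and FSTL1, 2 rose and 3 fell of 6 (median -0.16), and 1 rose when SETDB1-knockout replicate 2 or control replicate 2 was left out. COL1A1, a collagen ligand of SPARC, was low, with 1.16 ± 0.0692 CPM in the control and 0.746 ± 0.0933 CPM in the knockout (edgeR adjusted p = 0.0132), and lost its call with DESeq2 (adjusted p = 0.0689).

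**Figure D4:**
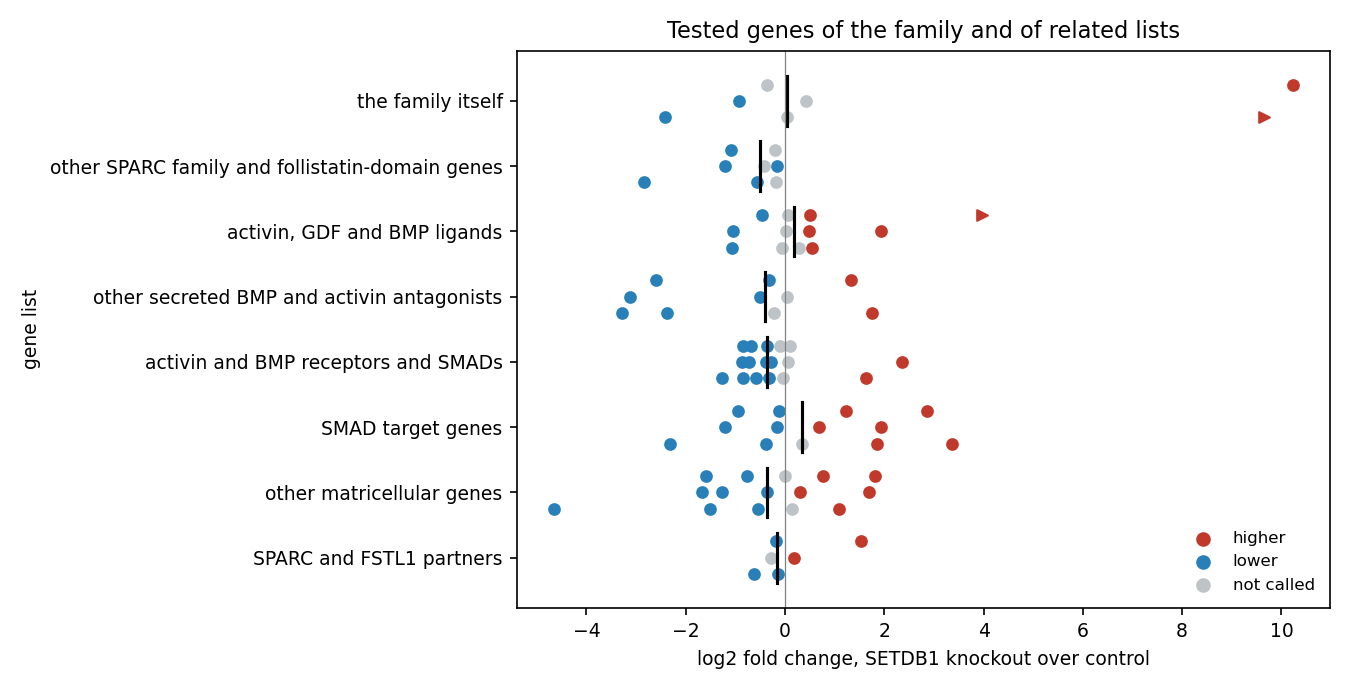
Log2 fold change (SETDB1 knockout over control) of each tested gene of the family and of 7 related lists; red, called higher, blue, called lower, grey, not called; black bars are list medians, and triangles are lower bounds of genes with 0 control counts. The family holds the 2 points farthest to the right, SMOC2 and FSTL5, by the choice of its members.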

How the data were processed

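A single table deposited by the authors holds unnormalized counts of reads for each gene in 6 libraries. Per the submitters' processing notes, FastQC, TopHat2, HTSeq and the build GRCh38.p7 were used; the sources used here give no tool versions, settings or strand handling. Each row had a library with at least 11 counts, so lower genes were not analysed here. Groups and replicate numbers come from the titles. Of 18677 identifiers, 18595 were named by GENCODE 29 without their version.

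Counts were filtered with filterByExpr (17675 genes kept, 1002 removed), scaled by TMM and tested in R 4.3.3 with edgeR 4.0.16 (robust glmQLFit and glmQLFTest); the common biological coefficient of variation was 4.89%. SE is the absolute log2 fold change divided by the square root of F. 1 count was worth 0.0282 to 0.0334 CPM. Counting intervals are exact (binomial, 95%); they and the floor of 3 counts per group cover counting error only. Replicates differed by more than counting error (chi-square per degree of freedom 2.32 to 10.3), so none was treated as a copy.

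Members and lists were chosen with earlier results of these data known. Named genes were SETDB1, all members, their nearest tested protein-coding neighbours, the 3 genes nearest by distance, and per list up to 3 rises and 3 falls with at least 1 CPM and any with both means of at least 50 CPM; not all of these are described. Alternatives were scaling by DESeq2 size factors or by library size only, 2 other filters, DESeq2 1.42.0, limma-voom (limma 3.58.1), the replicate number as a block, the neighbourhood median (25 genes per side) taken out, and each library left out. The steps were tested on simulated counts. Some genes of the lists are not reported here.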

Additional observations from a re-analysis of the deposited data

How the results depend on the processing

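SMOC2 and FSTL5 kept their calls as higher, and FSTL1 and FST theirs as lower, in all 15 fits including the reported one. All fits reuse the same libraries. For SMOC2, FSTL5 and FSTL1, whose differences chose the family, the kept calls are a description and support nothing by themselves. With the neighbourhood median taken out, 4 members were called higher; this step removes shifts shared by neighbouring genes, and the cause of the change was not tested. In the same setting the neighbouring genes SRSF5 and CHST3 turned from lower to 0.021 and 0.29 on the log2 scale. The counts over all genes stayed within 1.5 times, at 5072 to 6155 higher and 4685 to 5839 lower. With each library left out they were 5072 to 5570 and 5163 to 5524, and the members called lower were 2 or 3, the third being SPARC. At 1 CPM in 3 libraries SPOCK2 had no value, and FSTL4 was tested only in the fit without a filter.

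With the replicate number as a block, 2 members were called higher and 2 lower, as without it. Over all genes 5864 were called higher and 5839 lower with the block, beside 5635 and 5584 without it. The correlations of deviations between same-numbered libraries were 0.16, -0.087 and 0.062. Those between differently numbered libraries lay between -0.22 and 0.19. Whether same-numbered libraries share a batch cannot be told from these few values. Depth limits FSTL4, SPOCK2, SPARC and FST, which had 12 to 154 counts per group.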
